A study of Rattus norvegicus with 119 samples.

Results

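Male Sprague-Dawley rats that had received pioglitazone at 16 mg/kg/day for 28 days were compared with males that had received rosiglitazone at 10 mg/kg/day for the same time. The arrays were chosen by their titles, which name the drug, the dose, the sex and the time, and 4 pioglitazone and 5 rosiglitazone arrays were found, 9 of the 119 deposited. No vehicle array enters the difference itself, but vehicle arrays are among those that supply the variance of the fit. The study dosed rats of both sexes by mouth once a day with vehicle (methylcellulose), rosiglitazone or 1 of 2 doses of pioglitazone, and killed them 1 day after the last dose, after 3, 28 or 90 days. The lining of the bladder was scraped off with a scalpel and frozen, and its microRNAs (miRNAs) were labelled with Cy3 and measured on Agilent arrays for 301 rat miRNAs. The labels name the salts given, pioglitazone hydrochloride and rosiglitazone maleate. For the lower dose of pioglitazone, 16 mg/kg/day is what the labels state and 13 what the design text states, and the former is used here. The age of the rats is not given in the sources used here. Because the drugs were given at different doses, a difference between the groups is one between these treatments, and drug and dose cannot be told apart.

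Pioglitazone and rosiglitazone are thiazolidinediones, synthetic ligands of the nuclear receptor PPAR gamma that are used in type 2 diabetes. Both molecules carry the same thiazolidinedione head and differ in the pyridine-bearing tail. PPAR gamma is present in the urothelium, the multilayered epithelium of the bladder, where it takes part in differentiation. A miRNA is cut as a short duplex from a hairpin precursor. One strand is usually loaded into an Argonaute protein and pairs with messenger RNAs through its seed, bases 2 to 8, while the other, the minor strand, is mostly degraded and in older nomenclature carries an asterisk.

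After 28 days, 35 of 301 miRNAs (11.6%) differed: 28 (9.3%) were higher and 7 (2.33%) were lower with pioglitazone 16 than with rosiglitazone, by limma with a Benjamini-Hochberg adjusted p under 0.05. The higher group was led by miR-96, the minor strand let-7b*, miR-702-3p and miR-211, with log2 differences between 3.68 and 4.62. It held 4 of 5 measured let-7 minor strands, both minor strands of the miR-99 family, and miR-204 beside its close relative miR-211. The lower group held miR-320, miR-223, let-7e, miR-423*, miR-362, miR-191 and miR-28*. An unadjusted p under 0.05 was reached by 74 miRNAs (24.6%). The median difference over all 301 miRNAs was 0.00, and the median 95% interval reached 1.14 to either side. SEs, intervals and adjusted p values rest on a variance pooled over 24 groups, which is not the spread of these 2 groups. With the 2 groups alone 21 miRNAs passed, and with the 4 male groups of day 28, vehicle included, 0 did.

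The mature sequences of the miRNAs that carry the comparison are given 5′ to 3′ from RefSeq (assembly GRCr8), with the seed in capitals. Array names with an asterisk, and plain names for which RefSeq lists both strands, were matched to a strand by the usual nomenclature. For those the sequence is an assignment. Probe sequences were not among the sources used here, so how far the arrays tell close relatives apart was not tested. The first 4 show the let-7 minor strands that were called higher, of which let-7a-1*, let-7b* and let-7f-1* share the seed UAUACAA and let-7e* differs from it.
let-7b*: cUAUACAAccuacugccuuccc
let-7a-1*: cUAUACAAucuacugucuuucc
let-7f-1*: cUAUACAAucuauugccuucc
let-7e*: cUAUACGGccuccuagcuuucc
Next come the pair miR-211 and miR-204, which share a seed and 21 of 22 positions, and the pair miR-99b* and miR-99a*, which share the seed AAGCUCG.
miR-211: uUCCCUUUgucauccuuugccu
miR-204: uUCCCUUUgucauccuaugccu
miR-99b*: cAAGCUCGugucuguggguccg
miR-99a*: cAAGCUCGuuucuaugggucug
The other sequences belong to higher miRNAs with large differences and no shared seed among those printed.
miR-96: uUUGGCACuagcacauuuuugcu
miR-702-3p: uGCCCACCcuuuaccccacucca
miR-207: cUUCUCCUggcucuccucccuuu
miR-328b-3p: cUGGCCCUcucugcccua
miR-349: cAGCCCUGcugucuuaaccucu
miR-3550: cCGAGCCCaucccugcccuag
miR-346: uGUCUGCCugagugccugccucu
miR-3596b: aACUAUGCaaccuacuaccu
Then follow let-7d, whose mature strand lies opposite miR-3596b, and the lower miRNAs let-7e and miR-223.
let-7d: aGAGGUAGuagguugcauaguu
let-7e: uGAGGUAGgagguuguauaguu
miR-223: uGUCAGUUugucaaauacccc
No sequence is printed for miR-487b*, miR-320, miR-423*, miR-362, miR-191 and miR-28*.

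In GRCr8, let-7a-1*, let-7f-1* and let-7d lie together on chromosome 17, at chr17:16320196-16320217, chr17:16320564-16320584 and chr17:16322273-16322294, all on the plus strand. The 20 bases of miR-3596b, at chr17:16322275-16322294 on the minus strand, are the reverse complement of bases within mature let-7d. The minor strand miR-99b*, at chr1:67350108-67350129, lies in the same precursor cluster as let-7e, at chr1:67350243-67350264, and let-7e*, at chr1:67350288-67350309, all on the plus strand. miR-99b* and let-7e* were called higher and let-7e was called lower, a call lost without pioglitazone replicate 1 (adjusted p = 0.433). miR-125a-3p and miR-125a-5p, from the third hairpin beside them, at chr1:67350727-67350748 and chr1:67350689-67350712, did not pass (differences −1.44 and 0.01).

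The values are log2 intensities as deposited, with no detection calls. Many miRNAs lie close to the lowest values of the table, and a mean under 4 is taken here as near this floor. In these groups 117 miRNAs had a rosiglitazone mean under 4, 110 a pioglitazone 16 mean and 83 both. Near the floor a difference is compressed. Array medians were 3.87, 5.46, 5.17 and 5.06 with pioglitazone 16 and 5.47, 5.17, 4.22, 3.76 and 3.77 with rosiglitazone. The means, 4.89 ± 0.70 (SD, n = 4) and 4.48 ± 0.80 (SD, n = 5), were not distinguished by an exact permutation test (difference 0.41, two-sided p = 0.524). Each array is taken as 1 animal, since the labels describe tissue of 5 animals per sex and group.

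Of the 9 arrays, 2 stood apart. Rosiglitazone replicate 4 had a median correlation of 0.60 with the other rosiglitazone arrays, whereas the others had 0.89. In it miR-203, an epithelial miRNA, was at 3.62 against 11.96 to 12.88 in the other rosiglitazone arrays, and miR-200c, of the family that maintains the epithelial state, at 3.59 against 10.01 to 11.24. It also held miR-145, a smooth muscle miRNA, at 12.21. The mean of the 6 muscle miRNAs measured was 7.63 in it and higher, 9.12, in rosiglitazone replicate 2. Pioglitazone 16 replicate 1 had a median correlation of 0.85 with its group, against 0.94 to 0.97 for the others. Results are therefore also given without these 2 arrays, an alternative added after the values were seen. Without both, 26 miRNAs were higher and 3 lower, and 24 of the 28 higher and 3 of the 7 lower calls were kept.

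**Figure D1:**
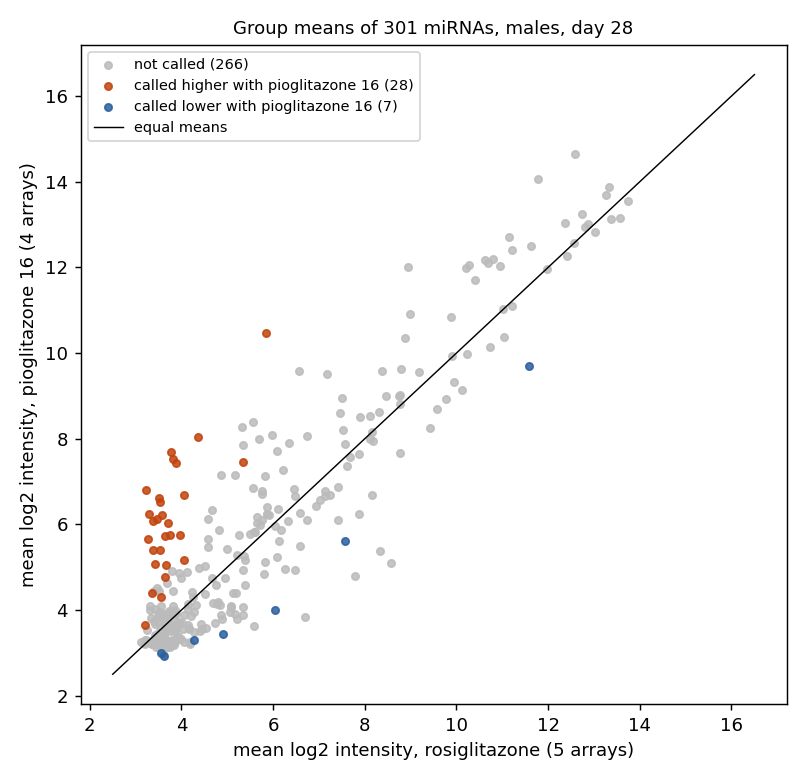
Mean log2 intensity of 301 miRNAs with rosiglitazone (x axis, 5 arrays) and pioglitazone 16 (y axis, 4 arrays) in males at day 28. The 28 miRNAs called higher lie above the line of equal means, and 23 of them have a rosiglitazone mean under 4.

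Of the 5 let-7 minor strands 4 were higher, where 9.3% of all miRNAs were. let-7b*, the strand opposite let-7b, measured 7.76, 7.14, 7.06 and 8.83 in the pioglitazone 16 arrays and 3.20, 3.12, 5.60, 3.27 and 3.66 in the rosiglitazone arrays. Every pioglitazone array lay above every rosiglitazone array, of which replicate 3 was the highest. The log2 difference was 3.93 (SE 0.66, adjusted p = 3.15e-06), with 4 of the 5 rosiglitazone arrays near the floor, where a fold is compressed. let-7e* measured 6.63, 5.32, 5.15 and 5.54 against 3.21, 3.10, 3.54, 3.28 and 3.22, again without overlap, with all rosiglitazone arrays near the floor. Its difference was 2.39 (SE 0.41, adjusted p = 3.57e-06).

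let-7f-1* measured 3.98, 5.90, 5.63 and 7.48 against 3.50, 3.34, 4.49, 3.86 and 3.57, and here the groups overlapped, since pioglitazone replicate 1 lay below rosiglitazone replicate 3. Its difference was 1.99 (SE 0.42, adjusted p = 1.7e-04). let-7a-1* was higher by 1.39 (SE 0.28, adjusted p = 5.66e-05), at 4.50 to 5.66 against 3.25 to 4.17. The fifth member, let-7d*, did not pass: it measured 9.29, 7.18, 6.93 and 8.62 against 6.76, 5.58, 7.20, 3.77 and 5.15, a difference of 2.31 (SE 0.84). Over the 5 minor strands the median difference was 2.31.

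The main let-7 strands repress growth and cell cycle genes and are among the most abundant miRNAs of differentiated epithelia. Of 8 measured, 0 were higher and 1, let-7e, was lower, where 9.3% of all miRNAs were higher and 2.33% lower. With so few members these counts do not set the main strands apart. Their median difference was −0.21. let-7b itself was at 13.15 ± 0.71 (SD, n = 4) against 13.56 ± 0.24 (SD, n = 5), and let-7a at 13.12 ± 0.96 against 13.38 ± 0.34. let-7e measured 5.95, 10.83, 10.67 and 11.38 with pioglitazone 16 and 11.65, 11.26, 11.996, 11.14 and 11.84 with rosiglitazone. One pioglitazone array, replicate 1, lay far below the other 8. The difference was −1.87 (SE 0.52, adjusted p = 0.00664), and without the 2 arrays that stood apart it was −0.72 (adjusted p = 0.491). It did not pass in the 2 groups alone (adjusted p = 0.346) or without pioglitazone replicate 1 (0.433). miR-3596b, complementary to let-7d, measured 7.22, 5.39, 5.17 and 6.52 against 3.14, 3.24, 3.44, 3.79 and 3.26, higher by 2.70 (SE 0.45, adjusted p = 2.76e-06) with no overlap. In the 2 groups alone its adjusted p was 0.00605. let-7d was at 11.02 ± 1.40 and 11.00 ± 2.46.

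miR-211 and miR-204 have the same seed and are known from melanocytes and from pigmented and secretory epithelia, respectively. miR-211 measured 8.14, 7.65, 7.31 and 9.10 with pioglitazone 16 and 3.22, 3.44, 7.79, 3.90 and 3.49 with rosiglitazone. Rosiglitazone replicate 3 lay among the pioglitazone arrays and the other 4 near the floor, so the groups overlapped. The difference was 3.68 (SE 0.72, adjusted p = 3.77e-05, and an exact permutation p of 0.0476 over the 126 splits of the 9 arrays). In the fit of these 2 groups alone miR-211 did not pass (adjusted p = 0.0605). miR-204 measured 5.94, 6.39, 6.85 and 7.62 against 3.94, 4.90, 4.33, 3.56 and 3.51, without overlap, and was higher by 2.65 (SE 0.80, adjusted p = 0.0141, and 0.0832 without pioglitazone replicate 4).

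miR-99b*, the minor strand of a miRNA of the miR-99 family, measured 6.13, 6.14, 5.48 and 7.15 against 3.75, 3.94, 3.72, 3.22 and 3.20. The groups did not overlap, and the difference was 2.66 (SE 0.41, adjusted p = 5.16e-07, and 0.00411 in the 2 groups alone). miR-99a* was higher by 1.11 (SE 0.33, adjusted p = 0.0132), at 4.56 to 5.76 against 3.30 to 4.62, where 1 pioglitazone array lay within the rosiglitazone range. The main strands did not pass: miR-99b was at 7.66 ± 2.38 and 8.77 ± 2.75, and miR-99a at 11.09 ± 0.33 and 11.22 ± 0.47 (SD, n = 4 and 5).

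miR-96, encoded with miR-183 and miR-182 in a cluster active in epithelial and sensory cells, had the largest difference. It measured 10.32, 10.28, 10.37 and 10.91 with pioglitazone 16 and 10.11, 5.11, 6.17, 3.57 and 4.26 with rosiglitazone. The pioglitazone arrays lay close together and just above rosiglitazone replicate 1, while the other rosiglitazone arrays spread widely below. The difference was 4.62 (SE 1.50, adjusted p = 0.0249), with an adjusted p of 0.0605 in the 2 groups alone and of 0.132 without the 2 arrays that stood apart. It also lost the call without pioglitazone replicate 4 (0.0781) or rosiglitazone replicate 4 (0.0818) or 5 (0.0628). Its cluster partners did not pass, miR-182 at 7.26 ± 0.64 against 6.21 ± 1.49 and miR-183 at 8.06 ± 2.47 against 6.74 ± 2.08.

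miR-702-3p measured 9.26, 6.69, 5.87 and 8.24 against 3.31, 3.60, 4.47, 4.30 and 3.36, higher by 3.71 (SE 0.54, adjusted p = 9.2e-08). miR-207 measured 8.39, 6.29, 5.86 and 6.65 against 3.21, 2.96, 3.49, 3.30 and 3.19, higher by 3.57 (SE 0.41, adjusted p = 4.07e-11). Neither overlapped between the groups, and the rosiglitazone arrays of miR-207 were all near the floor. In the 2 groups alone the adjusted p was 0.0101 for miR-702-3p and 0.00411 for miR-207. miR-328b-3p measured 6.99, 7.17, 6.93 and 8.61 against 3.05, 3.13, 6.52, 3.13 and 3.52, higher by 3.55 (SE 0.68, adjusted p = 2.84e-05). Its rosiglitazone replicate 3 came close to the pioglitazone range and the other 4 did not. The adjusted p of miR-328b-3p in the 2 groups alone was 0.0255.

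miR-349 measured 7.22, 6.43, 5.49 and 7.35 against 3.24, 3.15, 4.41, 3.42 and 3.31, higher by 3.11 (SE 0.57, adjusted p = 1.27e-05). miR-3550 measured 6.01, 6.48, 6.05 and 7.57 against 3.05, 2.95, 4.94, 3.29 and 3.48, higher by 2.99 (SE 0.58, adjusted p = 3.77e-05). miR-346, encoded in an intron of the glutamate receptor gene Grid1, measured 5.84, 5.62, 5.98 and 7.10 against 3.26, 3.21, 4.37, 3.15 and 3.32, higher by 2.67 (SE 0.46, adjusted p = 3.57e-06). In all 3 the groups were apart and rosiglitazone replicate 3 was the highest of its group. With the 2 groups alone the adjusted p was 0.00467 for miR-349, 0.00698 for miR-3550 and 0.00467 for miR-346. For each of the non-overlapping miRNAs the exact permutation p was 0.0159, the smallest that 4 against 5 arrays allow.

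**Figure D2:**
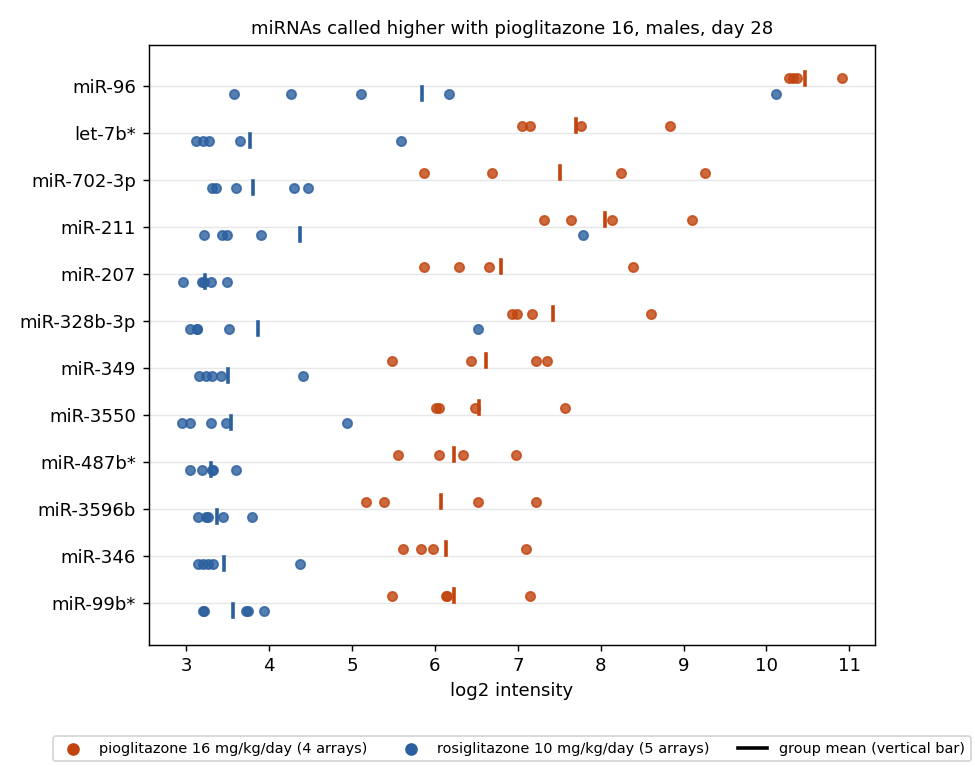
Log2 intensity (x axis) of the 12 higher miRNAs with the largest differences, 1 point per array, with the group mean as a vertical bar. The pioglitazone 16 arrays lie above the rosiglitazone arrays in all of them but miR-211, where rosiglitazone replicate 3 reached 7.79.

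From the imprinted Dlk1-Dio3 cluster, a large group of miRNAs expressed from the maternal chromosome, 3 of 30 measured members were higher and 0 lower, a share near the 9.3% of all miRNAs, and the median difference of the cluster was −0.14. miR-487b* measured 6.05, 6.34, 5.56 and 6.97 against 3.04, 3.20, 3.61, 3.32 and 3.31, higher by 2.93 (SE 0.50, adjusted p = 3.15e-06, and 0.00182 in the 2 groups alone). Its rosiglitazone arrays were all near the floor, and the other strand, miR-487b, was near it in both groups (3.97 ± 0.30 and 3.74 ± 0.28). miR-154 was higher by 2.32 (SE 0.54, adjusted p = 6.85e-04), at 5.18 to 6.79 against 3.30 to 4.39. miR-369-5p was higher by 1.13 (SE 0.33, adjusted p = 0.0106), at 4.00 to 5.52 against 3.25 to 4.22, with overlap.

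The other 9 higher miRNAs differed by 0.43 to 2.12. miR-191*, the minor strand of miR-191, measured 5.71, 5.46, 4.92 and 6.79 against 4.19, 3.59, 3.80, 3.34 and 3.28, higher by 2.08 (SE 0.36, adjusted p = 3.57e-06). Its main strand was called lower with both means near the floor, a call lost in the 2 groups alone, as given below. miR-345-5p, the only 1 of these with a rosiglitazone mean above 5, was at 7.46 ± 0.49 and 5.34 ± 1.80, a difference of 2.12 (adjusted p = 0.0221). It did not pass in the 2 groups alone (adjusted p = 0.223) or without the 2 arrays that stood apart (adjusted p = 0.344).

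miR-296* and miR-298 come from hairpins that neighbour each other in the imprinted Gnas region in mouse. miR-298 was higher by 1.63 (SE 0.40, adjusted p = 0.00125) and miR-296* by 0.74 (SE 0.23, adjusted p = 0.0209). miR-34b*, from a cluster that responds to p53, was higher by 1.87 (adjusted p = 0.00572), miR-340-3p by 1.79 (adjusted p = 0.00147) and miR-3563-5p by 2.02 (adjusted p = 0.00111). miR-26b*, opposite a miRNA encoded in an intron of Ctdsp1, was higher by 1.04 (SE 0.24), at 4.15 to 4.61 against 3.31 to 3.49. miR-106b*, opposite a cell cycle miRNA of the miR-17 family, was higher by 0.43 with both means near the floor (3.64 and 3.21). Its main strand miR-106b measured 9.52 ± 1.22 against 7.18 ± 2.28 and did not pass.

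Of the 28 higher miRNAs, 21 had pioglitazone arrays that were all above the rosiglitazone arrays. Over all 301 miRNAs, 27 (8.97%) were apart in this direction. The same arrays made the calls, so the larger share among the calls is in large part built in. In 23 of the 28 the rosiglitazone mean was under 4, and in 10 all 5 rosiglitazone arrays were under 4. An asterisk name was carried by 12 of the 28 (42.9%), against 71 of the 301 (23.6%). Among the 60 miRNAs whose array name was identical to a RefSeq mature name, the 10 higher ones had a median cytosine content of 39.5% (22.7% to 56.5%), and the other 50 had 22.7% (4.35% to 54.5%). Base content was examined after the sequences had been seen and is a description.

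The lower miRNAs differed less, and 4 of the 7 had a pioglitazone 16 mean under 4. Groups were apart in 4 of them, whereas 21 of 301 (6.98%) were apart in this direction. Here too the same arrays made the calls, so the larger share is in large part built in. miR-423* measured 3.29, 3.61, 3.51 and 3.39 with pioglitazone 16 and 5.62, 4.99, 4.87, 4.45 and 4.61 with rosiglitazone. Every pioglitazone array was near the floor and below every rosiglitazone array. The difference was −1.46 (SE 0.49, adjusted p = 0.0327), with an adjusted p of 0.0751 without the 2 arrays that stood apart. It lost the call without any 1 of the 4 pioglitazone arrays or without rosiglitazone replicate 1 or 2 (adjusted p of 0.0506 to 0.0861).

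miR-362, from an X-linked miRNA cluster, measured 3.12, 3.47, 3.42 and 3.17 against 4.17, 4.19, 4.33, 4.54 and 4.13. The groups did not overlap and the difference was −0.98 (SE 0.29, adjusted p = 0.0127), with an adjusted p of 0.1 without the 2 arrays and of 0.0514 without pioglitazone replicate 4. miR-191, a widely expressed miRNA, measured 2.97, 2.99, 2.90 and 2.87 against 4.11, 3.52, 3.40, 3.45 and 3.61, a difference of −0.68 (SE 0.21, adjusted p = 0.0166) at the floor of the table. miR-28*, the minor strand of miR-28, measured 2.91, 3.03, 2.94 and 3.09 against 3.15, 3.80, 3.42, 3.75 and 3.62, a difference of −0.55 (SE 0.14, adjusted p = 0.00138). Both means of miR-191 and miR-28* were near the floor. In the 2 groups alone neither passed (adjusted p = 0.0971 and 0.155), nor did miR-28* with centred arrays (0.111) or miR-191 without pioglitazone replicate 4 (0.0624) or rosiglitazone replicate 1 (0.0768).

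miR-320, whose precursor bypasses Drosha in mouse and human, measured 3.23, 4.28, 4.38 and 4.11 against 7.15, 7.35, 6.18, 3.78 and 5.70. It was lower in every pioglitazone array than in 4 of the rosiglitazone arrays, while rosiglitazone replicate 4 lay among the pioglitazone arrays. The difference was −2.03 (SE 0.67, adjusted p = 0.0267). It did not pass in the 2 groups alone (adjusted p = 0.155), or without pioglitazone replicate 1 (0.0995) or 4 (0.0644) or rosiglitazone replicate 1 (0.082) or 2 (0.0952). miR-223, a miRNA of neutrophils and other myeloid cells, measured 4.37, 6.03, 6.69 and 5.35 against 7.32, 7.21, 7.82, 10.92 and 4.56. Rosiglitazone replicate 4 held the highest and replicate 5 nearly the lowest value, so the groups overlapped. The difference was −1.96 (SE 0.64, adjusted p = 0.0275, exact permutation p = 0.143), and −0.70 (adjusted p = 0.729) without the 2 arrays that stood apart. It did not pass in the 2 groups alone (adjusted p = 0.378), or without pioglitazone replicate 1 (0.145) or 4 (0.0882) or rosiglitazone replicate 4 (0.285).

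**Figure D3:**
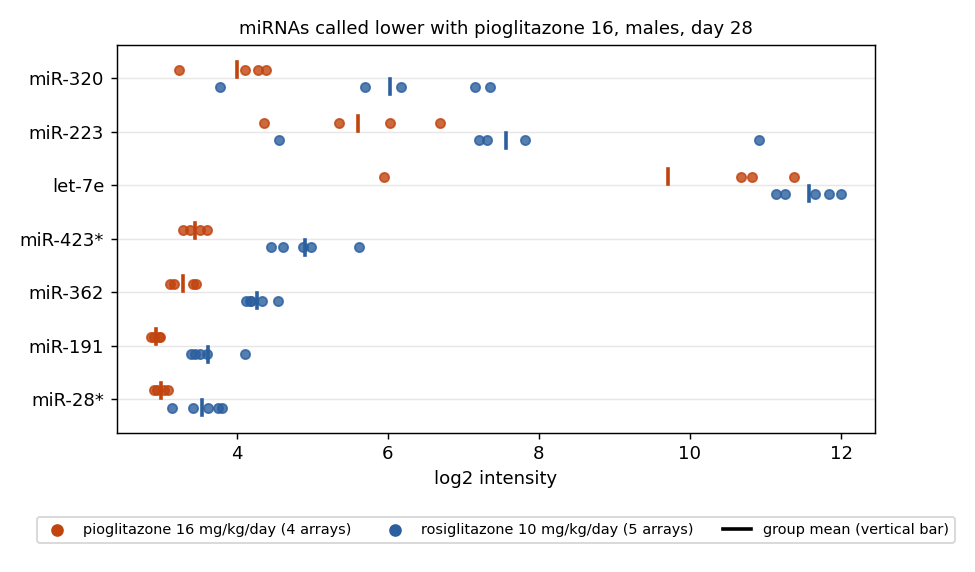
Log2 intensity (x axis) of the 7 lower miRNAs, 1 point per array, with the group mean as a vertical bar. miR-423*, miR-362, miR-191 and miR-28* are apart between the groups, and the low pioglitazone 16 point of let-7e is replicate 1, at 5.95.

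Some epithelial marker miRNAs were bright in both groups, which are labelled as bladder urothelium, but not all were. In rosiglitazone replicate 4 miR-203 and miR-200c lay under 4, as given above. In each group 1 of the 13 measured lay under 4 in every array. miR-200a was at 13.68 ± 0.25 and 13.26 ± 0.45, and miR-205, a miRNA of stratified epithelia, at 13.04 ± 0.47 and 12.36 ± 0.38. Of 13 epithelial miRNAs 1 was higher (miR-96) and 0 lower, where 9.3% of all miRNAs were higher, with a median difference of 0.51 that was 0.07 without the 2 arrays that stood apart. The mean of the list was 8.92 to 9.89 in the pioglitazone arrays and 6.18 to 10.0 in the rosiglitazone arrays, the lowest being replicate 4.

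Markers of other cells of the bladder wall varied between single arrays. Over all miRNAs 11.6% passed, and with so few members the counts do not set these lists apart. Of 6 muscle miRNAs 0 passed, and the list mean was 4.46 to 6.76 with pioglitazone 16 and 4.23 to 9.12 with rosiglitazone. miR-145 measured 3.58, 4.82, 7.09 and 3.66 against 7.37, 11.83, 4.22, 12.21 and 3.28, so that 3 of the rosiglitazone arrays lay above every pioglitazone array. Likewise 0 of 5 fibroblast and mesenchymal, 0 of 2 endothelial, 0 of 2 red blood cell and 0 of 2 neural miRNAs passed. Fibroblast list means were 4.50 to 7.86 and 4.65 to 8.40, endothelial ones 4.62 to 6.95 and 4.88 to 8.68, and red blood cell ones 4.48 to 7.01 and 3.78 to 7.66. Of 4 leukocyte miRNAs 1 was lower (miR-223), with list means of 4.91 to 6.11 and 4.30 to 6.79. In scraped tissue, fewer cells of a type and less RNA per cell cannot be told apart, and the part of these markers in the calls was not tested.

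**Figure D4:**
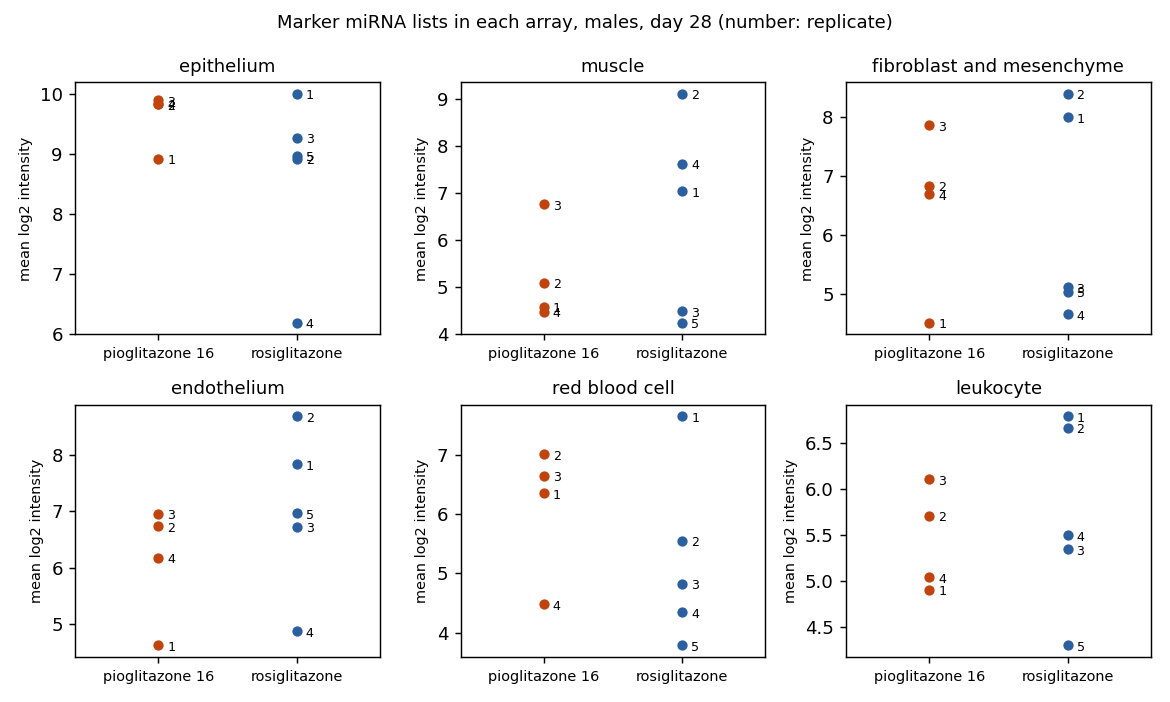
Mean log2 intensity (y axes, each with its own range) of 6 marker lists in each of the 9 arrays, numbered by replicate. Rosiglitazone replicate 4 has the lowest epithelial mean, 6.18, and a muscle mean of 7.63, below the 9.12 of rosiglitazone replicate 2.

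Of the miRNAs linked to the action of PPAR gamma none was called, where 11.6% of all miRNAs were, and with so few members this count does not set them apart. Of 17 miRNAs of adipocyte differentiation 0 passed, with a median difference of 0.01, and of 4 described to target Pparg 0 passed, with a median of 0.65. miR-27a, which is described to repress Pparg, measured 12.49, 11.75, 11.74 and 11.96 against 11.55, 11.46, 11.49, 5.03 and 11.49. The groups were apart, 4 rosiglitazone arrays lay just under the pioglitazone arrays and replicate 4 far below. The difference was 1.78 (SE 0.67, adjusted p = 0.0669), and 0.32 without the 2 arrays that stood apart. In the same way miR-21, an abundant miRNA linked to proliferation and injury, measured 14.01 to 14.93 against 14.04 to 14.86 in 4 rosiglitazone arrays and 5.84 in replicate 4.

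Of the miR-17-92 cluster and its paralogs, which promote the cell cycle, 1 of 13 was higher (miR-106b*), a share near the 9.3% of all miRNAs, and the median difference was 0.10. For 0 of 7 members of the miR-15/16 family, 0 of 7 inflammation and injury miRNAs, 0 of 5 of the miR-181 family, 0 of 11 of the miR-30 family, 0 of 7 of the miR-23/27/24 clusters and 0 of 5 of the miR-29 family did the test pass, where 11.6% of all miRNAs passed. The medians of these 6 lists were 0.38, 0.26, 0.64, 0.19, 1.30 and 0.57, beside 0.00 for all miRNAs. Without the 2 arrays that stood apart they were 0.29, 0.55, 0.52, 0.16, 0.42 and 0.23. With each array centred on its median, which lowers every difference by the same amount, the median of all miRNAs was −0.41. The miR-17-92 (−0.31), miR-15/16 (−0.03), inflammation (−0.15) and miR-30 (−0.22) lists then had medians below 0 but above that value. The medians of the miR-181 (0.23), miR-23/27/24 (0.89) and miR-29 (0.16) lists stayed above 0.

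At the other times the same 2 treatments gave 0 calls. In males 0 of 301 miRNAs (0.0%) passed by limma at day 3, where 5 (1.66%) had an unadjusted p under 0.05, and 0 (0.0%) passed at day 90, where 3 (0.997%) did. The smallest p at day 3 belonged to miR-598-5p (difference −0.70, adjusted p = 0.12) and miR-3562 (−0.53), and at day 90 to the red blood cell miRNA miR-144 (2.15) and to miR-150* (2.03). The 28 miRNAs higher at day 28 differed by −0.48 to 0.89 at day 3 (median 0.12) and by −0.17 to 0.77 at day 90 (median 0.03). Those comparisons rest on other arrays.

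The difference at day 28 was tested against the mean of the differences at days 3 and 90. It departed for 24 miRNAs (7.97%), larger for 21 (6.98%) and smaller for 3 (0.997%), and 21 of the 28 higher and 3 of the 7 lower calls were among them. The day 28 arrays that made the calls enter this test too, so this overlap is in large part built in. The 3 largest departures were let-7b* (3.84, adjusted p = 3.01e-04), miR-211 (3.73, adjusted p = 0.00108) and miR-207 (3.60, adjusted p = 3.1e-08). Those in the other direction were miR-362 (−1.22), miR-191 (−0.75) and miR-28* (−0.60). miR-96 did not pass in this test (adjusted p = 0.129).

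The same difference in females at day 28 rests on 3 pioglitazone 16 and 5 rosiglitazone arrays. Against it 18 miRNAs (5.98%) departed, with a signed difference higher in males for 16 (5.32%) and lower for 2 (0.664%). Of the 28 higher calls 16 were among them, and of the 7 lower calls 1. The male arrays that made the calls enter this test too, so this overlap is in large part built in. The largest departures were miR-211 (3.84, adjusted p = 0.0115), let-7b* (3.82, adjusted p = 0.00819) and miR-702-3p (3.77, adjusted p = 7.33e-04). The 2 in the other direction were let-7e (−2.64, adjusted p = 0.0163) and miR-376b-5p (−0.91, adjusted p = 0.0111). For let-7e, male pioglitazone replicate 1 lay at 5.95, far below the other arrays of the 2 male groups. miR-376b-5p, a Dlk1-Dio3 miRNA, was near the floor in both male groups (3.51 and 3.63). In females let-7b* was at 3.33 ± 0.05 (SD, n = 3) with pioglitazone 16 and 3.22 ± 0.13 (SD, n = 5) with rosiglitazone, both near the floor. With the 2 failed arrays of the female pioglitazone group and 1 failed vehicle array kept, 4 miRNAs passed in place of 18, namely miR-106b*, miR-207, miR-30c-1* and miR-99b*.

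The higher dose of pioglitazone, 63 mg/kg/day, was also set beside the same 5 rosiglitazone arrays in males at day 28, which both comparisons share. There 0 of 301 miRNAs (0.0%) passed by limma and 22 (7.31%) had an unadjusted p under 0.05, with the smallest p for miR-30c (difference 3.90) and miR-30b-5p (3.75). The 28 miRNAs differed by −0.53 to 3.72 at this dose (median 0.13). let-7b* was at 3.90 ± 1.47 (SD, n = 5) with pioglitazone 63 and 7.70 ± 0.82 (SD, n = 4) with pioglitazone 16, and miR-207 at 3.39 ± 0.51 and 6.80 ± 1.11. miR-96 was at 9.57 ± 1.09 with pioglitazone 63 and 10.47 ± 0.30 with pioglitazone 16. The difference between the doses was not tested here.

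The 28 miRNAs were also followed as a set through all 24 groups, as a description. Their median level was 5.97, 5.85, 5.33 and 7.04 in the pioglitazone 16 arrays and 3.28, 3.35, 4.24, 3.47 and 3.36 in the rosiglitazone arrays. At least 24 of the 28 lay above 4 in each pioglitazone array, whereas 4, 4, 16, 3 and 1 did so in rosiglitazone replicates 1 to 5. Vehicle males of day 28 had a group median of 8.37, with single arrays between 3.34 and 9.01. In the other 21 groups the group median was 3.30 to 3.50, and single arrays reached 6.24 at most. The rosiglitazone group median, 3.36, lay within that range, and the pioglitazone 16 group median, 5.91, lay between it and the day 28 vehicle median.

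**Figure D5:**
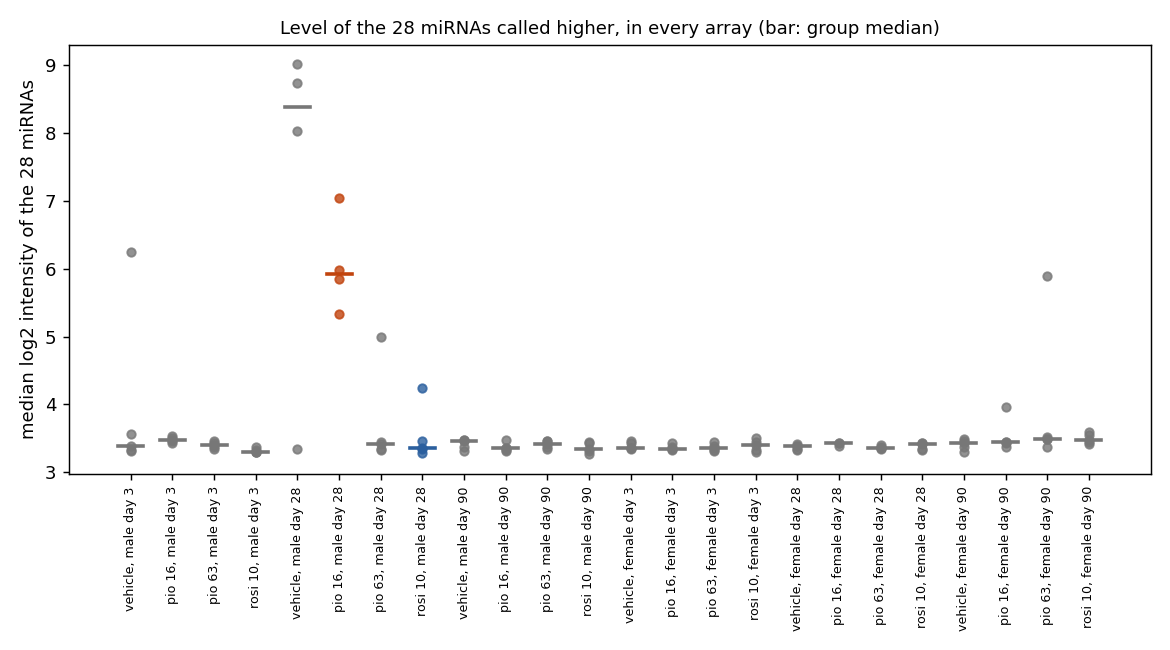
Median log2 intensity (y axis) of the 28 miRNAs called higher, 1 point per array and a bar for the median of each of the 24 groups, with pioglitazone 16 (red) and rosiglitazone (blue) of males at day 28 in colour. The 4 pioglitazone 16 arrays lie at 5.33 to 7.04 and the 5 rosiglitazone arrays at 3.28 to 4.24, and these arrays chose the 28 miRNAs.

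The number of calls depended on which arrays supplied the variance. With the 2 groups alone 19 miRNAs were higher and 2 lower, of which 18 and 2 were calls of the fit over all groups. The 10 higher calls lost there were miR-96, miR-211, miR-345-5p, let-7f-1*, miR-34b*, miR-298, miR-369-5p, miR-99a*, miR-296* and miR-106b*, and the 5 lower ones miR-320, miR-223, let-7e, miR-191 and miR-28*. With the treated groups alone, without vehicle arrays, 33 were higher and 8 lower. With the 4 male groups of day 28, vehicle arrays included, 0 passed by limma and 49 had an unadjusted p under 0.05. With each array centred on its median, which moved the median of all miRNAs to −0.41, 17 were higher and 14 lower (54.8% higher, against 80% as deposited). Centring kept 16 of the 28 higher calls, let-7b* and let-7e* among them, and 5 of the 7 lower ones, and let-7a-1* (adjusted p = 0.206) and let-7f-1* (adjusted p = 0.0932) no longer passed. Quantile normalization gave 29 higher and 26 lower (52.7% higher), the array median as a covariate 35 and 24 (59.3% higher), and array weights 34 and 16 (68% higher). Without pioglitazone 16 replicate 4, 20 were higher and 2 lower. The signs were also followed under centring, quantile normalization, the covariate, array weights and without pioglitazone 16 replicate 4. There all 28 higher miRNAs kept a positive and all 7 lower ones a negative difference. These miRNAs were chosen by their differences in the same arrays, so the kept signs are in large part built in. Centring lowers every difference by the same amount, so no lower one could turn. In the fits of fewer groups the differences are the same by construction.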

How the data were processed

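The authors' deposited table holds log2 intensities for 301 rat miRNAs on 119 arrays. Per the submitters' processing notes RMA and limma were used, without versions given. Nothing used here states how background was corrected, probes were summarised or miRNAs were filtered. The array medians given above are unequal, and whether quantile normalization was part of the RMA step is not known here. By their labels 3 arrays failed quality control, none of them among the 9 compared, and were left out. From the deposited log2 values, 1 mean per group was fitted over 24 groups and 116 arrays with limma 3.58.1 in R 4.3.3 (92 residual degrees of freedom). Tests were two-sided with Benjamini-Hochberg adjustment over 301 miRNAs within each contrast and a threshold of 0.05. The method was run on simulated data with normal noise, the same SD for a miRNA in all groups and no floor. Such data cannot show how the pooled variance behaves where groups differ in spread, as they do here. SEs rest on the variance pooled over the 24 groups. Exact permutation tests used the 126 splits of the 9 arrays. The number of arrays limits the precision. The miRNAs named were, by rule, the 12 higher and 12 lower ones at most with the largest differences, up to 3 each way in other contrasts or else the 2 with the smallest p, and list members. The other 16 higher calls were described after their values were seen. The comparison and the lists were chosen with earlier results of these data known. Sequences came from RefSeq, where 60 array names matched a mature name as written and 13 were assigned to a strand.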

Additional observations from a re-analysis of the deposited data

Results flagged for a closer look

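Single arrays stood far from their group by Dixon's criterion in 11 of 54 groups of values examined. These groups reuse the same 9 arrays and include miRNAs chosen as calls, some near the floor. A chance rate of 1 in 20 therefore need not hold for them. Rosiglitazone replicate 3 was the highest of its group for let-7b* (5.60), miR-211 (7.79), miR-328b-3p (6.52), miR-349 (4.41), miR-3550 (4.94) and miR-346 (4.37). Pioglitazone 16 replicate 4 was the highest for miR-96 (10.91) and miR-328b-3p (8.61). Pioglitazone 16 replicate 1 was the lowest for let-7e (5.95) and for the epithelial list mean (8.92), and rosiglitazone replicate 4 was the lowest for the epithelial list mean (6.18).

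The difference between the treatments at day 28 departed from that at days 3 and 90 in 24 miRNAs, by limma tests of the difference itself. The signed difference was higher at day 28 for let-7b* (3.84), miR-211 (3.73) and miR-207 (3.60). It was lower for miR-362 (−1.22), miR-191 (−0.75) and miR-28* (−0.60). Between males and females at day 28 it departed in 18 miRNAs. The signed difference was higher in males for miR-211 (3.84), let-7b* (3.82) and miR-702-3p (3.77) and lower for let-7e (−2.64) and miR-376b-5p (−0.91). Both tests include the male day 28 arrays that made the calls.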

How the results depend on the processing

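The comparison gave 35 calls as deposited, 21 with the 2 groups alone, 0 with the male day 28 groups, 55 after quantile normalization (29 higher, 26 lower), 59 with the array median as a covariate (35 higher, 24 lower), and 0 among the brighter miRNAs, which hold only 2 of the 28 higher and 3 of the 7 lower ones. Leaving out 1 array gave 22 to 47, with 22 without pioglitazone 16 replicate 4. Counts at day 3 ran from 0 to 1 (miR-598-5p) without 1 array, and at day 90 array weights gave 3 (miR-144, miR-144* and miR-29a) and leaving out 1 array 0. The test of day 28 against the other days gave 10 with centring, 0 among the brighter miRNAs, 41 with array weights and 16 to 26 without 1 array. The test against females gave 4 with failed arrays kept, 2 with centring (let-7e and miR-423*), 34 with the covariate, 0 among the brighter miRNAs, 40 with array weights and 16 to 26 without 1 array. Pioglitazone 63 against rosiglitazone gave 3 with quantile normalization (miR-28*, miR-362 and miR-376b-3p), 3 with the covariate (miR-148b-3p, miR-30b-5p and miR-30c) and 0 to 5 without 1 array, with 5 without rosiglitazone replicate 1. The difference in array medians was 0.22 to 0.75 without 1 array. With the replicate number as a block the counts were 37 for the comparison, 0 at day 3, 0 at day 90, 24 against the other days, 20 against females and 0 for pioglitazone 63. Deviations of arrays with the same number had correlations of −0.41, 0.20, −0.28 and −0.27, so the numbers were not taken to pair the animals. Where counts changed the cause was not tested. Of the values of single miRNAs and lists, none changed sign past the threshold and 61 lost the threshold under an alternative. The single miRNAs were chosen by their differences in these arrays, so their kept signs are in large part built in. Another 2 values, both the median of the Dlk1-Dio3 list, moved by more than the spread between arrays. Missing detection calls and the floor limit what can be said of dim miRNAs.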
